A study of Mus musculus with 18 samples.

Results

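The endoplasmic reticulum (ER) folds the proteins that a liver cell secretes, and 35 genes of its folding, quality control and stress machinery were followed through liver regeneration in the mouse. The members were taken by gene symbol out of 17180 genes listed in any of the deposited tables. By role, 15 encode chaperones and folding enzymes, 7 act in ER-associated degradation (ERAD), 5 are sensors and transcription factors of the unfolded protein response, 5 belong to the ATF4 and CHOP branch and 3 to the translocon. Livers came from C57BL/6 mice after a sham operation, or at 0.5, 2, 4, 24, 48, 72, 120 and 168 h after 2/3 partial hepatectomy, the removal of lobes after which the remaining lobes grow back. Each of the 9 groups held 2 poly(A) RNA-seq libraries, each made from the combined RNA of 3 mice, so n = 2 pools per group throughout. The labels give neither sex nor age, carry no genetic change, and mark the time of the sham livers only as control.

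Library totals ran from 7780000 to 9160000 unique reads to 3 digits. The table of sham replicate 2 stopped at a count of 52 and that of 0.5 h replicate 1 at 157, so a gene unlisted there is unknown up to 6.52 and 19.0 CPM (counts per 1000000 reads, with TMM factors). All 18 tables list 28 members, which were tested in all 18 libraries over 4906 genes. The 7 others (Derl3, Ern1, Xbp1, Ddit3, Trib3, Asns and Chac1) were tested in the 16 complete libraries over 12199 genes, where sham replicate 1 and 0.5 h replicate 2 stand alone for their groups. Their spread was assumed to be that of the other groups. All 35 members passed the filter on low counts. Changes are given on the log2 scale with their SE, tested by edgeR's quasi-likelihood F test, and p was adjusted over all genes of the fit by Benjamini-Hochberg; "rose" and "fell" stand for an adjusted p under 0.05. These p-values rest on the spread from pool to pool. In whole liver, fewer cells of a type and less RNA per cell cannot be told apart. All 7 hepatocyte markers were high in the 16 complete libraries, albumin (Alb) at 49218 to 128508 CPM.

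When unfolded proteins build up in the ER, Hspa5 (BiP), the main chaperone of its lumen, leaves the sensors IRE1α (Ern1), PERK (Eif2ak3) and ATF6, and each sensor starts a branch of the response. ATF6 and the spliced form of XBP1 switch on chaperone and ERAD genes, and PERK slows translation while favouring that of ATF4, which switches on amino acid and stress genes. ERAD carries misfolded proteins back to the cytosol for degradation through the ubiquitin ligase Syvn1 (HRD1) and its partners. Gene counts do not show splicing of Xbp1, cleavage of ATF6 or phosphorylation.

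Members of the group are known for short promoter elements through which these factors act, and the elements were looked for by exact letters on both strands in RefSeq windows from 250 bases before to 50 bases after the gene start (GRCm38.p6, the mm10 assembly). Windows were found for 30 of the 35 members. The ER stress element ERSE, searched as CCAAT and CCACG with any 9 bases between them, which ATF6 and XBP1 bind together with NF-Y, was found in 9 of these 30 (30%) and in 37 of 27025 genes (0.137%). ERSE-II, searched as ATTGG and CCACG with any 1 base between them, was in 2 members and in 12 genes (0.0444%). Another element of the response, UPRE, searched as TGACGTGG, was in 0 members and in 193 genes (0.714%). The composite site of C/EBP and ATF4, searched as TGATGNAA, was in 4 members (Herpud1, Asns, Chac1 and Trib3) and in 1219 genes (4.51%). The ERSE sites of the chaperones, shown because they are the regulatory sequence these genes are best known for, are given 5′ to 3′ on the gene's strand with the element in capitals; in Calr, in Creld2 and in the first Hsp90b1 line it lies on the other strand.
Hspa5 (chr2:34772010-34772058, plus strand): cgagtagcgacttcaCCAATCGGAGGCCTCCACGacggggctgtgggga
Dnajc3 (chr14:118937812-118937860, plus strand): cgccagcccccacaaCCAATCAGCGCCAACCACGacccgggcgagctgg
Hsp90b1 (chr10:86705518-86705566, minus strand): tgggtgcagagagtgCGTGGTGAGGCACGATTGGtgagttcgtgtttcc
Hsp90b1 (chr10:86705623-86705671, minus strand): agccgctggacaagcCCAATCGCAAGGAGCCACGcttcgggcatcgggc
Pdia6 (chr12:17266476-17266524, plus strand): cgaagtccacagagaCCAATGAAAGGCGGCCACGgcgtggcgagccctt
Calr (chr8:84847060-84847108, minus strand): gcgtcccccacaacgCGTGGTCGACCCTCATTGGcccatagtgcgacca
Canx (chr11:50325785-50325833, minus strand): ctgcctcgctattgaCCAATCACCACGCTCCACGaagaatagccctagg
Creld2 (chr15:88819505-88819553, plus strand): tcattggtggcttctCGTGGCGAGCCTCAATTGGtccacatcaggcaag

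The ERAD genes Herpud1 and Syvn1, whose changes at 4 h are described below, carry an ERSE-II and an ERSE site, and the 250 bases before their starts are shown with that element in capitals. In Herpud1 the ERSE-II site ends 42 bases before the start, and a C/EBP-ATF composite site lies 112 to 105 bases before it. In Syvn1 the ERSE site ends 26 bases before the start. Derl3, the remaining ERAD gene with an ERSE site, has it on the other strand.
Herpud1 (chr8:94386179-94386428, plus strand): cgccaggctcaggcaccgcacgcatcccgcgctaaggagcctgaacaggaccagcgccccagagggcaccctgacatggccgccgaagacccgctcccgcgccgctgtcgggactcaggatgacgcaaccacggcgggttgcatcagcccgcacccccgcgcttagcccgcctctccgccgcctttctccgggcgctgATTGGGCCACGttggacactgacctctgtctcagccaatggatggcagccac
Syvn1 (chr19:6046326-6046575, plus strand): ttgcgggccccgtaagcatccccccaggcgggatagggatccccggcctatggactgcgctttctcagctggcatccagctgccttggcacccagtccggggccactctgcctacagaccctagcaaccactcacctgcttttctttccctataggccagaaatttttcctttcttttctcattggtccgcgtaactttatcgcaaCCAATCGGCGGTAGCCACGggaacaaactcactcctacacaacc
Derl3 (chr10:75893227-75893275, plus strand): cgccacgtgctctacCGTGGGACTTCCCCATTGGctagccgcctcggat

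Over the course, 4 of the 7 ERAD genes fell against sham at 4 h and 5 at 24 h. Of all genes in 18 libraries 18.8% and 9.46% fell, and of 21 further ERAD genes 2 and 4. At 24 h only 1 member passed without sham replicate 1 or without either 24 h pool. Herpud1 and Syvn1 stood at 0.263 to 0.333 times their sham level at 4 and 24 h. Also against sham, Atf4 rose at 4 h, Ppp1r15a at 0.5, 2 and 4 h, and the translocon genes Sec61a1 and Ssr1 at 48 h. The 0.5 h call of Ppp1r15a was lost in 16 of 26 alternatives. Most chaperones passed no test against sham. Among the 9 groups 17 of the 35 members differed, where edgeR called 68.6% of the genes of the 18-library fit and 42.8% of those of the 16-library fit. These were 3 of 15 chaperones, 6 of 7 ERAD genes, 4 of 5 sensors and transcription factors (Ern1, Atf6, Xbp1 and Atf4), 2 of 5 genes of the ATF4 and CHOP branch (Chac1 and Ppp1r15a) and 2 of 3 translocon genes (Sec61a1 and Ssr1). The heat map of all members shows the rows of Herpud1, Sel1l, Syvn1 and Derl2 blue at 4 and 24 h, the row of Edem1 pale red at 4 h, and that of Ppp1r15a red from 0.5 to 4 h.

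**Figure D1:**
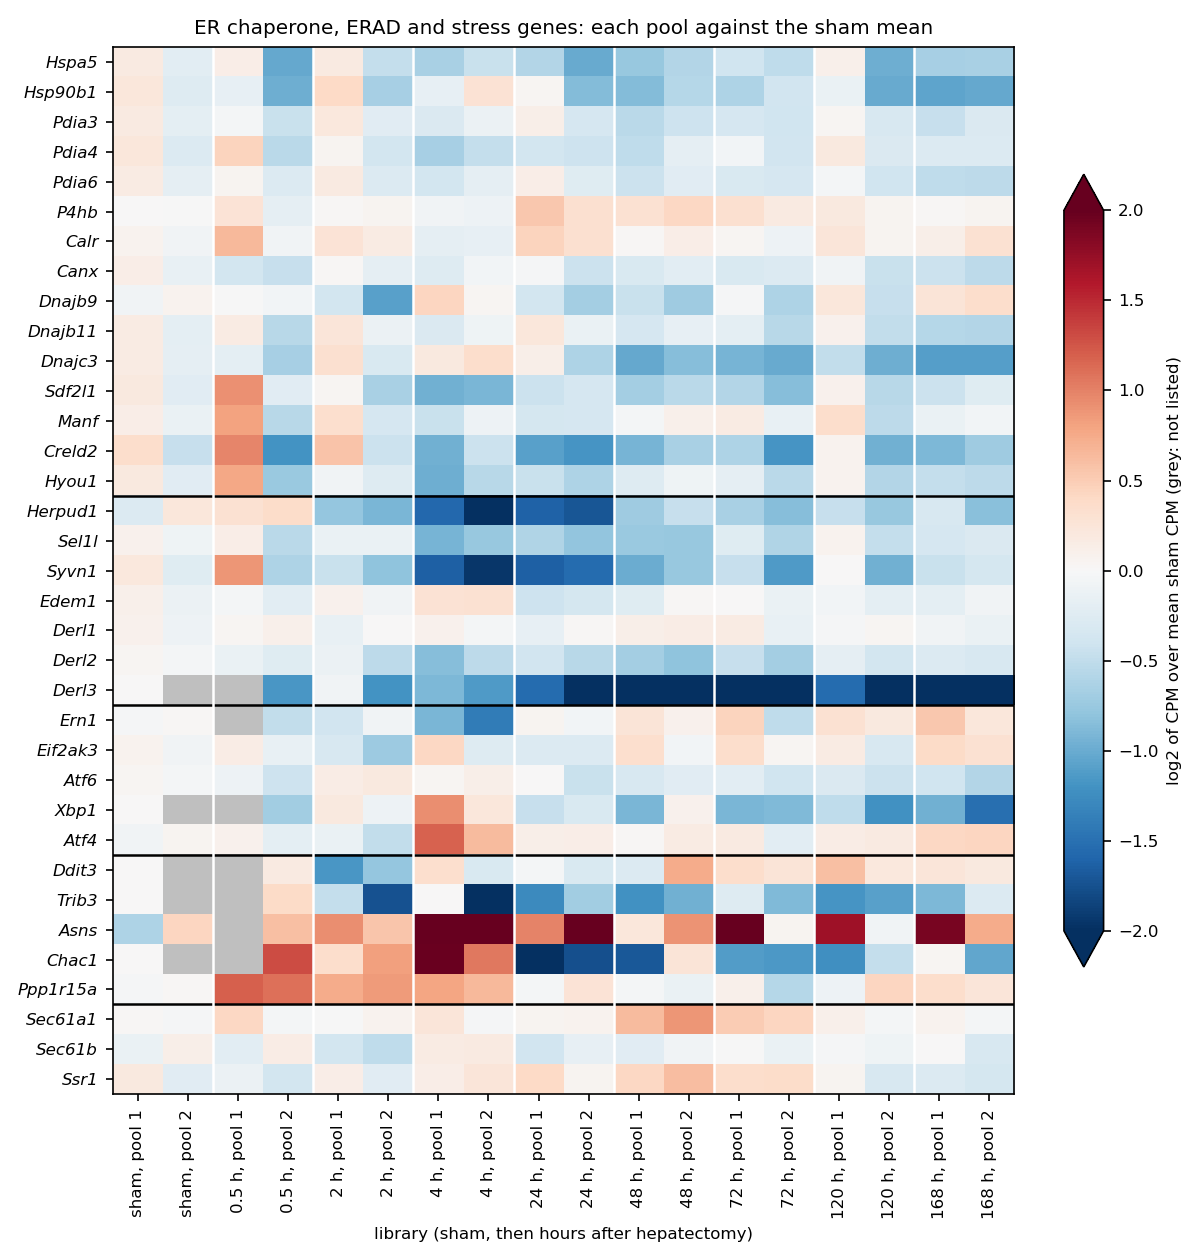
Each cell is the log2 of a member's CPM in 1 pool over its mean in the listed sham pools, with members as rows in 5 role blocks (chaperones, ERAD, sensors and transcription factors, ATF4 and CHOP branch, translocon) and the 18 pools as columns. Colours stop at 2 and -2, and grey marks pools whose short table does not list the gene. Derl3 lies beyond the lower stop in 24 h replicate 2 and in both pools at 48, 72 and 168 h. Single pools of Herpud1 (4 h), Chac1 (24 h) and Trib3 (4 h) do too. Asns lies beyond the upper stop in both pools at 4 h, in 24 h replicate 2 and in 72 h replicate 1.

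Against sham, the number of members that passed the test was highest at 4 h, followed by 48 h, and for all genes these were also the 2 highest times. At 0.5 h 1 member rose and 0 fell, with 0.204% of all genes called in 18 libraries and 0.0492% in 16. At 2 h 1 rose and 1 fell, against 8.76% and 2.65% of all genes. At 4 h 2 rose and 6 fell, against 35.7% and 15.5%. At 24 h 0 rose and 5 fell, against 17.3% and 2.93%. At 48 h 2 rose and 4 fell, against 36.8% and 14.9%. At 72 h 0 rose and 3 fell, against 12.6% and 3.82%. At 120 h edgeR called 0 members, against 0.775% of all genes in 18 libraries. Without adjustment 4 members had a p under 0.05 in edgeR's test at 120 h, as had 830 of 4906 genes in 18 libraries. At 168 h 0 rose and 1 fell, against 5.75% and 0.082%.

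The median member stood below 0 on the log2 scale at each time, at -0.02 (0.5 h), -0.07 (2 h), -0.15 (4 h), -0.28 (24 h), -0.27 (48 h), -0.30 (72 h), -0.17 (120 h) and -0.31 (168 h), whereas the median of all genes in 18 libraries ran from -0.019 at 72 h to 0.018 at 168 h. TMM factors keep the median of all genes near 0 at each time, so its position there is no separate result. The 8 comparisons share the sham pools, so the medians of the members do not stand alone either. These medians hold estimates that passed no test. Single libraries weighed on the counts: at 4 h 3 members passed without 4 h replicate 1 and 4 without sham replicate 1, at 24 h 1 without sham replicate 1 or either 24 h pool and 2 without sham replicate 2, at 48 h 3 without sham replicate 1 or 48 h replicate 1, and at 72 h 0 without sham replicate 1. Between times, 3 members rose and 2 fell from 2 to 4 h (14.7% and 6.7% of all genes called), 3 rose and 6 fell from 4 to 24 h (34.5% and 22.4%), 2 rose and 1 fell from 24 to 48 h (14.5% and 6.57%), and 2 rose and 2 fell from 48 to 168 h (20.8% and 13.8%). The scale matters at 4 h: by library totals alone the median gene lay at -0.37 against sham, and the split of the 35 members was 1 up and 15 down at 4 h, 14 up and 1 down from 4 to 24 h, 1 up and 2 down at 24 h, 1 up and 6 down from 2 to 4 h, and 0 up and 4 down from 48 to 168 h. In 18 libraries 318 of 4906 genes rose and 2287 fell at 4 h on that scale. From 4 to 24 h 2723 of these genes rose and 256 fell, and from 2 to 4 h 109 rose and 1170 fell. At 24 h against sham 681 rose and 345 fell, and from 48 to 168 h 364 rose and 949 fell.

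The ERAD genes made up most of the falls. At 4 h 4 of the 7 fell and 0 rose, at 24 h 5 fell, at 48 h 3 and at 72 h 2, where the share of all genes that fell in 18 libraries was 18.8%, 9.46%, 18.9% and 6.42%. At 120 and 168 h 0 of the 7 passed the test. At 4 h 4 fell with RLE factors too, and 5 by library totals alone. At 24 h 3 fell with RLE factors and 2 by library totals alone. On the latter scale 2287 of 4906 genes in 18 libraries fell at 4 h and 345 at 24 h.

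Herpud1 (gene 64209, chromosome 8, 94386429 to 94395371) encodes a membrane scaffold of the Syvn1 ligase complex and is a classical target of the stress response. Its pools stood at 375 and 530 CPM in sham, 557 and 581 at 0.5 h, 265 and 240 at 2 h, 151 and 86.3 at 4 h, 147 and 139 at 24 h, 277 and 329 at 48 h, 289 and 251 at 72 h, 328 and 266 at 120 h and 361 and 252 at 168 h. Both pools at 0.5 h lay above both sham pools and those of each later time below them, and the pools of 4 and 24 h did not reach those of any other time. It fell by 0.84 ± 0.24 at 2 h (adjusted p = 0.0454), by 1.93 ± 0.25 at 4 h (adjusted p = 7.27e-05) and by 1.66 ± 0.25 at 24 h (adjusted p = 0.000972), all on the log2 scale by edgeR. From 2 to 4 h it fell again by 1.09 ± 0.25, and from 24 to 48 h it rose by 1.09 ± 0.24 (adjusted p = 0.0123 and 0.0132). At 48 h the estimate against sham was -0.58 ± 0.24 with an adjusted p of 0.0757. The calls at 4 and 24 h held in all 26 alternatives, while that at 2 h was lost in 15 of 26, among them without either sham or either 2 h pool.

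Syvn1 (gene 74126, chromosome 19, 6046576 to 6053718), the ubiquitin ligase itself, followed a like course. It stood at 222 and 162 CPM in sham, 353 and 125 at 0.5 h, 142 and 110 at 2 h, 62.1 and 49.8 at 4 h, 61.9 and 65.8 at 24 h, 96.1 and 114 at 48 h, 140 and 87.7 at 72 h, 192 and 98.4 at 120 h and 141 and 151 at 168 h. The 4 pools of 4 and 24 h were the lowest of all 18, and the pools at 0.5 h lay on both sides of sham. It fell by 1.78 ± 0.41 at 4 h (adjusted p = 0.00468) and by 1.59 ± 0.41 at 24 h (adjusted p = 0.0171). The exons of Syvn1 overlap those of Mrpl49 on the opposite strand, and since no source used here gives the strand of counting, reads of the shared stretch cannot be assigned. Without sham replicate 1 the adjusted p at 24 h was no longer under 0.05, nor was it without either 24 h pool.

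Sel1l (gene 20338, chromosome 12, 91806043 to 91849157), the adaptor that holds the Syvn1 complex together, stayed low for longer. Its pools read 338 and 301 CPM in sham, 350 and 219 at 0.5 h, 292 and 291 at 2 h, 167 and 190 at 4 h, 210 and 185 at 24 h, 192 and 189 at 48 h, 270 and 210 at 72 h, 334 and 230 at 120 h and 253 and 261 at 168 h. Each pool from 4 to 48 h lay below each sham pool. It fell by 0.84 ± 0.21 at 4 h, 0.69 ± 0.21 at 24 h and 0.75 ± 0.21 at 48 h (adjusted p = 0.00711, 0.0346 and 0.0139), and by 0.71 ± 0.21 from 2 to 4 h (adjusted p = 0.0377). Without sham replicate 1 none of the 3 calls against sham held, and those at 24 h and from 2 to 4 h were lost without any 1 of the pools compared.

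The Derlins, membrane proteins of the channel through which ERAD substrates leave, parted ways. Derl2 (gene 116891, chromosome 11, 71007440 to 71019841) held 98.9 and 94.5 CPM in sham, 87.9 and 81.6 at 0.5 h, 89.5 and 67.6 at 2 h, 53.4 and 67.6 at 4 h, 74.4 and 65.5 at 24 h, 60.3 and 55.5 at 48 h, 70.5 and 60.4 at 72 h, 85.6 and 75.3 at 120 h and 79.8 and 77.5 at 168 h. All 16 pools after hepatectomy lay below both sham pools. It fell by 0.68 ± 0.15 at 4 h (adjusted p = 0.00398), 0.47 ± 0.15 at 24 h (0.0488), 0.74 ± 0.15 at 48 h (0.00284) and 0.56 ± 0.15 at 72 h (0.0274). Only the 48 h call among these held in all 26 alternatives, and that at 24 h was lost in 18 of them, RLE factors and either sham or 24 h pool left out included. The 4 h call was lost without 4 h replicate 1, and that at 72 h without either sham pool or 72 h replicate 2. Exons of Derl2 overlap those of Mis12 on the opposite strand.

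Derl3 (gene 70377, chromosome 10, 75893398 to 75895941) was the scarcest of the 3 and changed most. It stood at 12.4 CPM in sham replicate 1, where 99 reads were counted, 5.51 at 0.5 h, 11.8 and 5.39 at 2 h, 6.63 and 5.65 at 4 h, 4.27 and 3.01 at 24 h, 0.689 and 0.4 at 48 h, 0.431 and 0.839 at 72 h, 4.24 and 3.1 at 120 h and 3.07 and 1.28 at 168 h. The 4 pools of 48 and 72 h, with 4 to 8 reads each, were the lowest. It fell by 4.49 ± 0.57 at 48 h (adjusted p = 0.000723) and 4.28 ± 0.56 at 72 h (adjusted p = 0.00383) against the single sham library, fell by 2.71 ± 0.56 from 24 to 48 h (adjusted p = 0.0122) and rose by 2.02 ± 0.59 from 48 to 168 h (adjusted p = 0.038). Sham replicate 2 did not list Derl3, so its level there was at most 6.52 CPM and the sham pools differed. With unlisted genes taken as 0 both calls against sham were lost (adjusted p = 0.434 and 0.652). The change from 24 to 48 h was lost without 24 h replicate 1 or either 48 h pool, and that from 48 to 168 h without either 48 h pool or 168 h replicate 1. Of plasma and B cell genes, 8 markers summed to 4.5 CPM in the sham library, 1.87 and 2.1 at 48 h and 1.89 and 3.88 at 72 h, with Tnfrsf17 at 0 in 15 of 16 libraries and Mzb1 in 8; their part in the values of Derl3 was not tested.

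Derl1 and Edem1 did not share the fall at 4 h. Derl1 lay between 108 and 136 CPM in all 18 pools and passed no test, with an estimate of 0.03 at 4 h and a fold of 1.26 from lowest to highest pool. Edem1 (gene 192193, chromosome 6, 108824045 to 108859356), a mannosidase-like protein that marks misfolded glycoproteins, read 237 and 203 CPM in sham, 215 and 191 at 0.5 h, 234 and 209 at 2 h, 270 and 271 at 4 h, 165 and 173 at 24 h, 186 and 223 at 48 h, 221 and 201 at 72 h, 212 and 192 at 120 h and 192 and 209 at 168 h. Its highest pools were those of 4 h and its lowest those of 24 h. From 4 to 24 h it fell by 0.68 ± 0.13 (adjusted p = 0.001), while the estimate by library totals alone was -0.19 and passed no test. Its fall at 24 h against sham, 0.38 ± 0.12 with an adjusted p of 0.05, was lost in 20 of 26 alternatives.

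**Figure D2:**
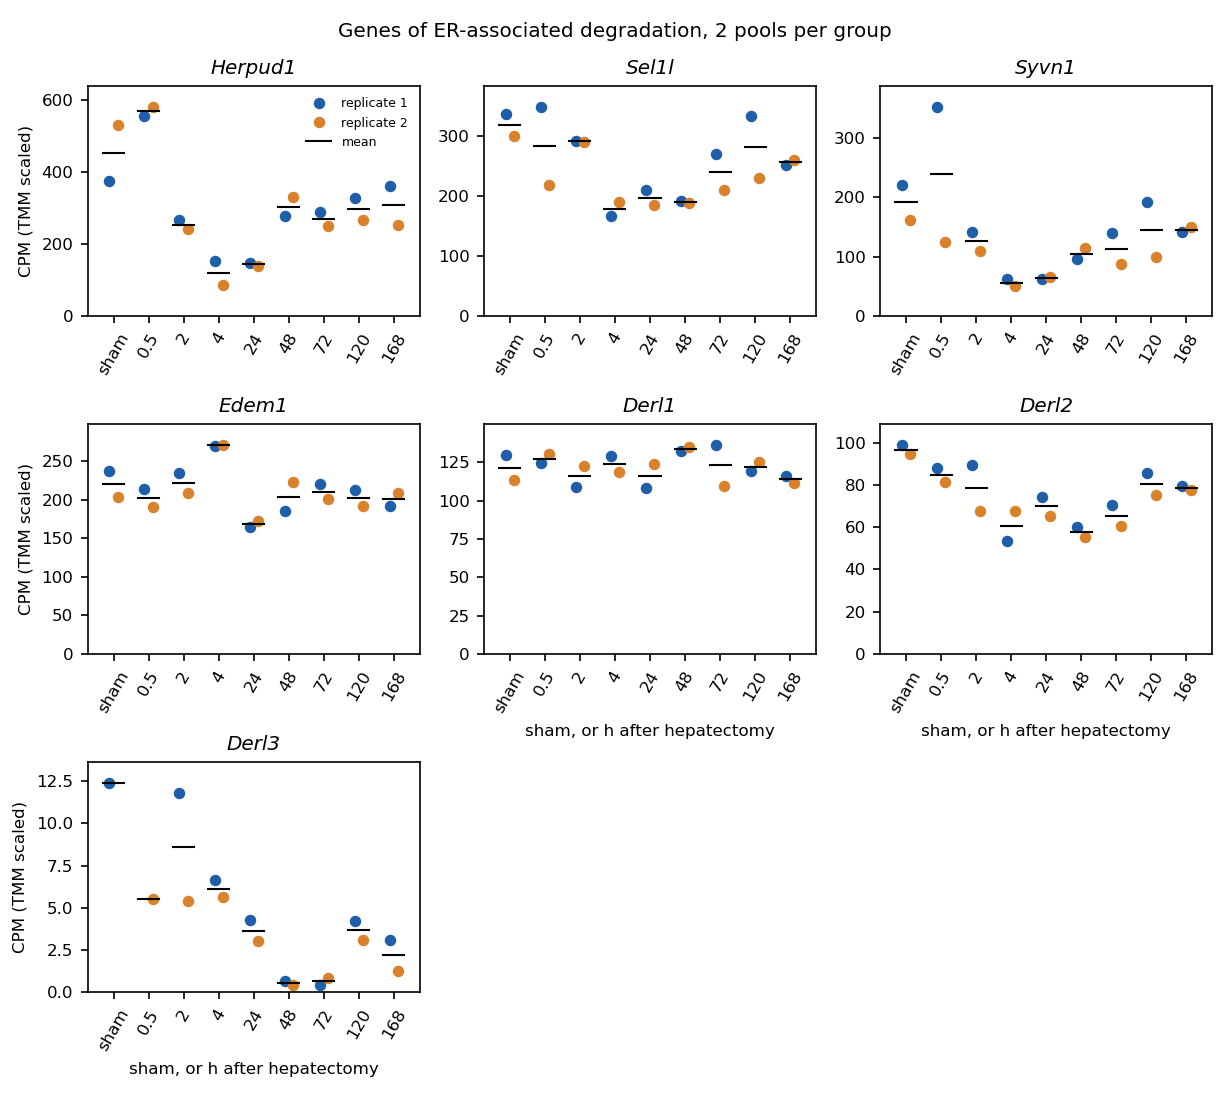
Points are the CPM of each of 2 pools per group for the 7 ERAD genes, blue for replicate 1 and orange for replicate 2, with bars at the mean of the listed pools and axes from 0. Herpud1 and Syvn1 are lowest at 4 and 24 h, Derl3 is lowest at 48 and 72 h, and Derl1 lies between 108 and 136 CPM throughout.

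The chaperones and folding enzymes included the most abundant members. Per length, Calr stood at 971 RPKM (reads scaled by gene length and library total) as the mean of the sham pools, P4hb at 789, Hspa5 at 697 and Hsp90b1 at 638, against 243.9 for Herpud1, 53.9 for Atf4, 4.75 for Ppp1r15a and 4.3 for Eif2ak3. Against sham, 0 of the 15 rose at any time, and 1 fell at 4 h (Sdf2l1) and 1 at 48, 72 and 168 h (Dnajc3). The estimates lay below 0 for 12 of 15 at 4 h, with a median of -0.20, and for 12 of 15 at 168 h, with a median of -0.48. By library totals alone 9 of the 15 fell at 4 h and 7 rose from 4 to 24 h, so the count at 4 h depends on the scale more than for the ERAD genes. Of 4906 genes in 18 libraries, 2287 fell at 4 h and 2723 rose from 4 to 24 h on that scale.

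Hspa5 (gene 14828, chromosome 2, 34772090 to 34776529) had pools of 2037 and 1558 CPM in sham, 1972 and 886 at 0.5 h, 2032 and 1289 at 2 h, 1145 and 1324 at 4 h, 1200 and 897 at 24 h, 1063 and 1199 at 48 h, 1367 and 1263 at 72 h, 1938 and 917 at 120 h and 1133 and 1148 at 168 h. Both pools at 4, 24, 48, 72 and 168 h were below both sham pools, yet no contrast passed, the estimates being -0.54 at 4 h and -0.78 at 24 h (adjusted p = 0.263 and 0.161). The 2 pools at 0.5 h alone spanned a 2.23-fold range. Hsp90b1, the Hsp90 of the ER, ranged from 833 to 2293 CPM over the 18 pools and was lowest at 168 h, with an estimate of -1.04 that did not pass (adjusted p = 0.11).

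Dnajc3 (gene 100037258, chromosome 14, 118937932 to 118981702), a J-domain partner of Hspa5 that also restrains PERK, was the chaperone gene with a lasting fall. Its values were 389 and 305 CPM in sham, 301 and 218 at 0.5 h, 433 and 281 at 2 h, 397 and 443 at 4 h, 378 and 227 at 24 h, 170 and 192 at 48 h, 182 and 172 at 72 h, 246 and 177 at 120 h and 162 in both pools at 168 h. All pools from 48 h on lay below both sham pools. It fell by 0.94 ± 0.26 at 48 h, 0.97 ± 0.26 at 72 h and 1.1 ± 0.26 at 168 h (adjusted p = 0.0125, 0.0256 and 0.0338). Without sham replicate 1 none of the 3 calls held, and those at 72 and 168 h were lost without any 1 of the pools compared.

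Dnajb9 (gene 27362, chromosome 12, 44205897 to 44210068), another J-domain partner that also restrains IRE1α, went down and up. Its pools read 83.7 and 91.9 CPM in sham, 87.2 and 84.9 at 0.5 h, 67.9 and 41.5 at 2 h, 118 and 89.9 at 4 h, 67.9 and 54.9 at 24 h, 64.4 and 53.6 at 48 h, 86.2 and 56.9 at 72 h, 103 and 63.7 at 120 h and 105 and 112 at 168 h. It passed no test against sham, and its exons overlap the microRNA gene Mir5627 on the opposite strand. Between times it rose by 0.93 ± 0.27 from 2 to 4 h, fell by 0.76 ± 0.26 from 4 to 24 h and rose by 0.88 ± 0.26 from 48 to 168 h (adjusted p = 0.0349, 0.0395 and 0.0296), and each call was lost by library totals alone and without at least 1 of the libraries compared (2 h replicate 2 or 4 h replicate 1, 4 h replicate 1 or 24 h replicate 2, and any of the 4).

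Sdf2l1, a partner of the Hspa5 system with 174 to 855 reads per pool, stood at 62.4 and 47 CPM in sham and 28.2 and 28.9 at 4 h, where its pools did not overlap. It fell by 0.94 ± 0.33 (adjusted p = 0.04), a call lost without any 1 of the 4 sham and 4 h pools. P4hb, the classical protein disulphide isomerase and a subunit of prolyl hydroxylase, went from 1888 and 1837 CPM at 4 h to 2873 and 2466 at 24 h, a rise of 0.52 ± 0.15 (adjusted p = 0.0153). Calr, which retains glycoproteins until they are folded, went from 1645 and 1656 to 2549 and 2339 CPM over the same interval, a rise of 0.57 ± 0.19 (adjusted p = 0.0303). For both genes the 24 h pools exceeded all 4 pools of sham and 4 h, and the estimates against sham at 24 h, 0.43 and 0.39, did not pass (adjusted p = 0.0589 and 0.164). Both rises were lost without either 4 h pool or 24 h replicate 1, that of Calr also without 24 h replicate 2.

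Besides Hspa5 and Hsp90b1, 8 further chaperones and folding enzymes passed no test in any comparison. The disulphide isomerases Pdia3, Pdia4 and Pdia6 ranged over the 18 pools from 555 to 930, 299 to 644 and 228 to 371 CPM. Canx, the membrane-bound relative of Calr, ranged from 394 to 625 CPM, and Dnajb11, a further J-domain protein, from 95.4 to 169. Manf, a stress-induced secreted factor, ranged from 167 to 427 CPM, Creld2, a stress-induced ER protein, from 53.1 to 239, and Hyou1, the nucleotide exchange factor of Hspa5, from 209 to 703. The reads of Manf covered 38.9% to 50.9% of its gene model and those of Dnajb11 48.9% to 57.3%. Exons of Manf overlap those of Dcaf1, Rbm15b and 4930524O07Rik, those of Hsp90b1 overlap 1810014B01Rik, those of Pdia3 overlap Catsper2 and those of Pdia6 overlap Atp6v1c2, so their reads cannot be fully assigned.

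The pools of a group often stood apart in these genes. In 0.5 h replicate 1 all 15 chaperones were higher than in 0.5 h replicate 2, by a median of 1.64-fold, with Creld2 at 239 and 53.1 CPM, Hyou1 at 703 and 247, and Manf at 427 and 167. At 120 h again 15 of 15 were higher in replicate 1, by a median of 1.49-fold, as were 14 of 15 at 2 h (1.37-fold), 14 in sham (1.28-fold), 13 at 24 h (1.23-fold) and 13 at 72 h (1.11-fold). At 4 h 2 of 15 and at 48 h 1 of 15 were higher in replicate 1, and at 168 h 6 of 15. Over the 4906 genes the share higher in replicate 1 lay between 47% and 52.3% in the 9 groups. The replicate number carries no order, and no label of the pools moves with this difference. Syvn1 shared it at 0.5 h (353 and 125 CPM) and at 120 h (192 and 98.4), while Herpud1 at 0.5 h stood at 557 and 581.

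**Figure D3:**
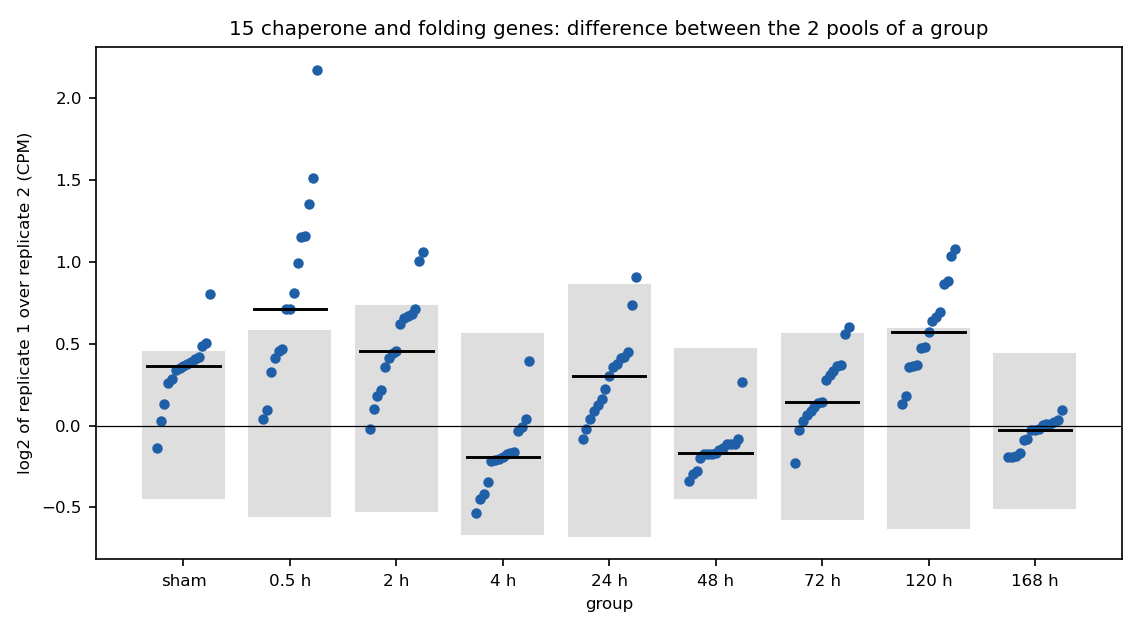
Each point is 1 of the 15 chaperone and folding genes, at the log2 of its CPM in replicate 1 over replicate 2 of the group on the x axis; the black bar is the median and the grey box holds the central 95% of all 4906 genes. At 0.5 and 120 h all 15 points lie above 0, and at 48 h 14 lie below it.

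Of the sensors and transcription factors, Atf4 rose and Ern1 fell at 4 h, and the others passed no test against sham. Atf4 (gene 11911, chromosome 15, 80255184 to 80257545), the transcription factor of the PERK branch, stood at 89.2 and 97.1 CPM in sham, 98.7 and 81.7 at 0.5 h, 84.8 and 66 at 2 h, 210 and 144 at 4 h, 101 and 102 at 24 h, 94.4 and 104 at 48 h, 105 and 80.3 at 72 h, 103 and 106 at 120 h and 124 and 125 at 168 h. The 4 h pools were above all 16 others. It rose by 0.93 ± 0.18 at 4 h against sham (adjusted p = 0.00148) and by 1.23 ± 0.18 from 2 to 4 h (adjusted p = 0.00115), both in all 26 alternatives, and fell by 0.80 ± 0.18 from 4 to 24 h (adjusted p = 0.00394). That last call was lost by library totals alone and without 4 h replicate 1.

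Ern1 (gene 78943, chromosome 11, 106397620 to 106487796), the sensor that splices Xbp1, went the other way at the same time. It stood at 23.5 and 24.2 CPM in sham, 17 in the listed 0.5 h pool, 18.4 and 22.7 at 2 h, 12.6 and 9.03 at 4 h, 24.8 and 23.1 at 24 h, 28.6 and 25.2 at 48 h, 32.6 and 16.8 at 72 h, 29.5 and 27.2 at 120 h and 34.7 and 27.8 at 168 h. The 4 h pools were the lowest. It fell by 1.15 ± 0.35 at 4 h against the 1 complete sham library (adjusted p = 0.0426) and rose by 1.15 ± 0.30 from 4 to 24 h (adjusted p = 0.0145). With sham replicate 2, which lists Ern1, in a 17-library fit the fall was 1.15 ± 0.28 (adjusted p = 0.00795). In 16 libraries the fall was lost in 11 of 26 alternatives, among them without either 4 h pool, and the later rise without 4 h replicate 2.

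Eif2ak3, the kinase PERK, ranged from 11.6 to 25.6 CPM and passed no test; its exons overlap those of Gm43292 on the opposite strand. Atf6 ranged from 63.6 to 109 CPM, with its highest group mean at 2 h and its lowest at 168 h, and differed among the 9 groups (adjusted p = 0.0204) but in no pair compared. Xbp1 ranged from 1.49 to 8.09 CPM, highest at 4 h (8.09 and 5) and lowest at 168 h (2.19 and 1.49), and differed among the 9 groups (adjusted p = 0.0388) with no pair passing. Its 14 to 50 reads covered 3.75% to 5.04% of a gene model of 2264 bases, so this is the level of a short stretch and not of the gene.

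Of the ATF4 and CHOP branch, Ppp1r15a rose early and Chac1 was high at 4 h and low at 24 h, while Ddit3 and Trib3 passed no test. Ppp1r15a (gene 17872, chromosome 7, 45522917 to 45526268), which directs the phosphatase that reverses the PERK signal, read 10.9 and 11.2 CPM in sham, 25.2 and 23.5 at 0.5 h, 18.5 and 19.8 at 2 h, 19.1 and 17.3 at 4 h, 10.8 and 13.3 at 24 h, 10.7 and 9.99 at 48 h, 11.8 and 7.44 at 72 h, 10.3 and 14.9 at 120 h and 14 and 13 at 168 h. The 6 pools from 0.5 to 4 h were above all others. It rose by 1.14 ± 0.20 at 0.5 h, 0.80 ± 0.21 at 2 h and 0.72 ± 0.21 at 4 h (adjusted p = 0.0357, 0.0284 and 0.0178), and fell by 0.59 ± 0.21 from 4 to 24 h (adjusted p = 0.0401). The 0.5 h call was lost with DESeq2 and without any 1 of the 4 pools compared, and those at 2 and 4 h were lost by library totals alone, without either sham pool, and without either 2 h pool or 4 h replicate 1. The fall from 4 to 24 h was lost in 12 of 26 alternatives, among them library totals alone, where the estimate was -0.10, and without either 4 h pool, either sham pool or 24 h replicate 1. Its exons overlap those of Tulp2 on the opposite strand.

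Chac1 (gene 69065, chromosome 2, 119351242 to 119354326), an enzyme that degrades glutathione, had 3.5 CPM in the complete sham library, 8.61 in the listed 0.5 h pool, 4.45 and 6.17 at 2 h, 13.8 and 7.26 at 4 h, 0.64 and 1.04 at 24 h, 1.08 and 4.2 at 48 h, 1.62 and 1.57 at 72 h, 1.49 and 2.52 at 120 h and 3.62 and 1.71 at 168 h. From 4 to 24 h it fell by 3.61 ± 0.61 (adjusted p = 0.00115), and the pools did not overlap. Against sham the estimates were 1.55 at 4 h and -2.06 at 24 h, neither of which passed (adjusted p = 0.139 and 0.171). Its composite site and that of Asns were picked for display because the 2 genes had their highest group means at 4 h, when Atf4 did too. The same site was found in Herpud1 and Trib3, whose estimates at 4 h against sham were -1.93 and -0.80. Whether ATF4 acts through these sites was not tested. The site of Chac1 is on the other strand.
Chac1 (chr2:119351034-119351071, plus strand): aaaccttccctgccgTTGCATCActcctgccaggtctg
Asns (chr6:7693210-7693247, minus strand): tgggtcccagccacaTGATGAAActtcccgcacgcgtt

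Asns (gene 27053, chromosome 6, 7675165 to 7693209), which makes asparagine, had 4 and 8.27 CPM in sham, 9.3 in the listed 0.5 h pool, 11.7 and 8.99 at 2 h, 29.3 and 31.3 at 4 h, 12.2 and 25.6 at 24 h, 7.18 and 11.4 at 48 h, 26.5 and 6.39 at 72 h, 19.9 and 5.85 at 120 h and 22.8 and 10.2 at 168 h. Both 4 h pools were above all others, and from 72 h on the pools of a group lay far apart. In 16 libraries the estimate at 4 h was 2.88 and did not pass (adjusted p = 0.054), and with sham replicate 2 in the fit it rose by 2.29 ± 0.70 (adjusted p = 0.0238). Ddit3, the factor CHOP, ranged from 1.95 to 7.3 CPM on 14 to 73 reads and was lowest in the 2 h pools (1.95 and 2.57). Its exons overlap those of Mars on the opposite strand. Trib3, a pseudokinase induced by CHOP, ranged from 0.645 to 5.05 CPM on 4 to 44 reads, with pools of 3.88 and 0.645 CPM at 4 h.

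**Figure D4:**
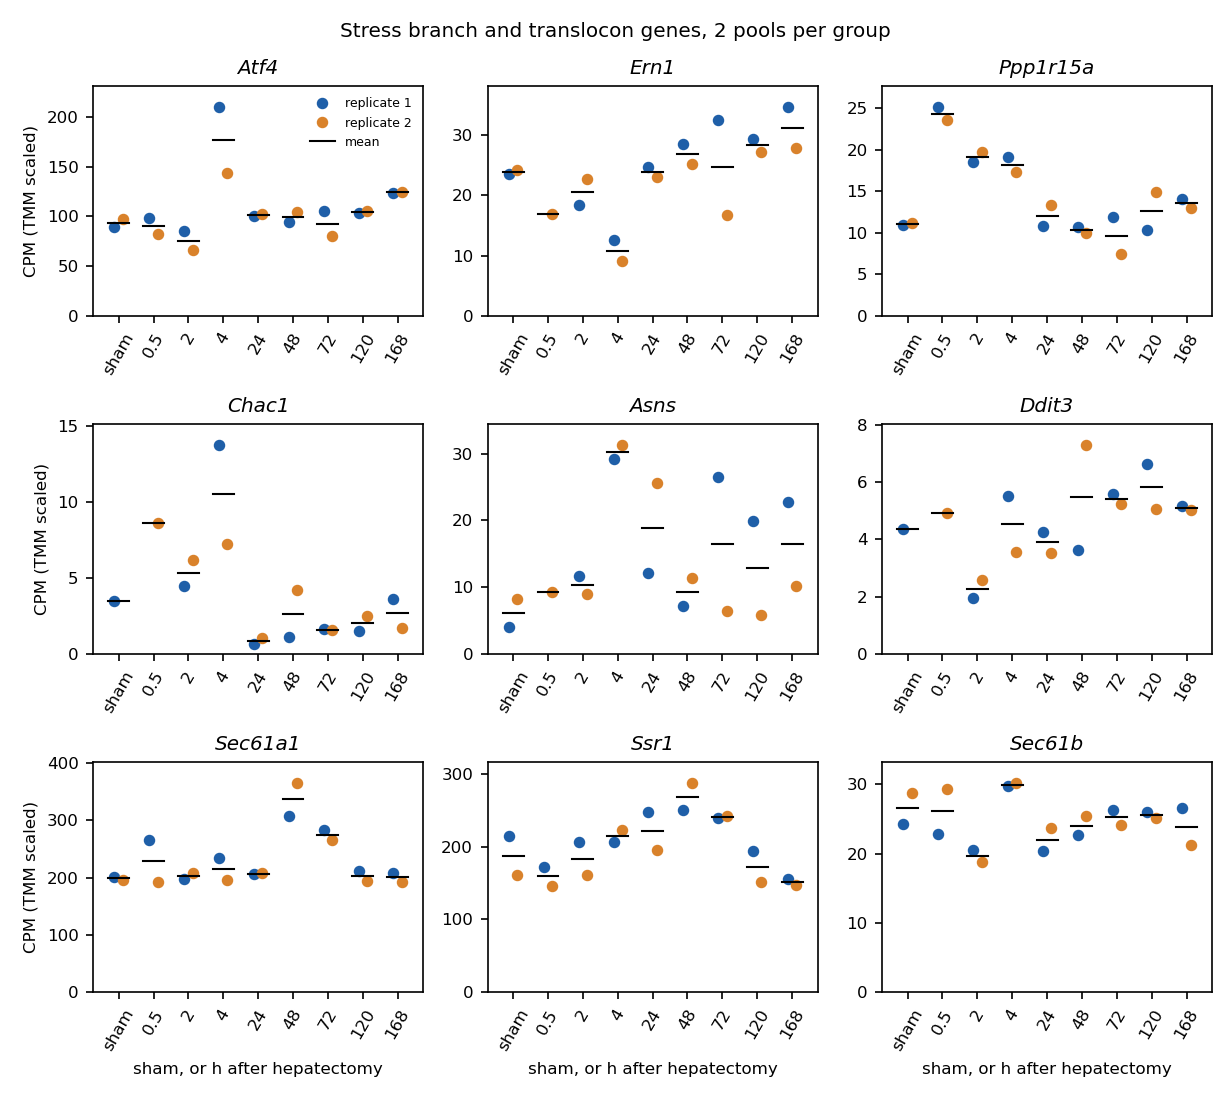
Points are the CPM of each of 2 pools per group for 9 genes, blue for replicate 1 and orange for replicate 2, with bars at the mean of the listed pools and axes from 0. Atf4, Chac1 and Asns are highest and Ern1 lowest at 4 h, Ppp1r15a is high from 0.5 to 4 h, and Sec61a1 and Ssr1 are highest at 48 h.

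The translocon is the channel through which secretory proteins enter the ER. Sec61a1 and Ssr1 had their highest group means at 48 h and Sec61b at 4 h. At 48 h 2 of the 3 rose, where 18% of all genes in 18 libraries rose. Sec61a1 (gene 53421, chromosome 6, 88503607 to 88518800), the channel itself, stood at 202 and 195 CPM in sham, 266 and 193 at 0.5 h, 199 and 209 at 2 h, 235 and 196 at 4 h, 206 and 208 at 24 h, 308 and 365 at 48 h, 283 and 266 at 72 h, 212 and 194 at 120 h and 208 and 193 at 168 h. Both 48 h pools lay above all others. It rose by 0.76 ± 0.15 at 48 h against sham (adjusted p = 0.00184) and by 0.70 ± 0.14 from 24 to 48 h (adjusted p = 0.00964), and fell by 0.75 ± 0.15 from 48 to 168 h (adjusted p = 0.00334). The first and the last of these held in all 26 alternatives, and the second was lost without 24 h replicate 1 or 48 h replicate 2. Its exons overlap those of Gm44170 on the opposite strand. At 72 h the estimate of 0.47 had an adjusted p of 0.0509.

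Ssr1 (gene 107513, chromosome 13, 37971401 to 37994208), a subunit of the translocon-associated TRAP complex, stood at 214 and 161 CPM in sham, 172 and 146 at 0.5 h, 206 and 160 at 2 h, 206 and 223 at 4 h, 248 and 196 at 24 h, 250 and 287 at 48 h, 239 and 241 at 72 h, 194 and 151 at 120 h and 156 and 147 at 168 h. It rose by 0.52 ± 0.18 at 48 h against sham (adjusted p = 0.0357), a call lost without sham replicate 2 and without either pool of 4 or 48 h. From 48 to 168 h it fell by 0.83 ± 0.18 (adjusted p = 0.00585), a call lost without 48 h replicate 2 or 168 h replicate 2. Sec61b, a small subunit of the channel, went from 20.6 and 18.8 CPM at 2 h to 29.8 and 30.2 at 4 h and 20.4 and 23.7 at 24 h. Its rise of 0.61 ± 0.16 from 2 to 4 h (adjusted p = 0.0252) was lost by library totals alone and without any 1 of the pools compared, and its fall of 0.44 ± 0.16 from 4 to 24 h (adjusted p = 0.0435) had an estimate of 0.049 on that scale.

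The 11 members with an ERSE or ERSE-II site, described by their values only, did not move as 1 group. At 4 h 0 of them rose and 2 fell (Herpud1 and Syvn1), with estimates from -1.93 to 0.28. At 24 h 0 rose and 2 fell, again Herpud1 and Syvn1. At 48 h 0 rose and 2 fell (Dnajc3 and Derl3). Over all genes in 18 libraries 18.8% fell at 4 h, 9.46% at 24 h and 18.9% at 48 h. Thus 2 of 11 is near the background at 4 and 48 h and above it at 24 h, a difference that was not tested. Sel1l, Edem1 and Derl2 had none of the 4 elements in their windows.

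Of other genes of the same compartment, 21 further ERAD genes gave 0 rises and 2 falls at 4 h (Rnf5 and Man1b1), 0 and 4 at 24 h and 2 and 7 at 48 h. Over all genes in 18 libraries the share that fell was 18.8% at 4 h, 9.46% at 24 h and 18.9% at 48 h. Ngly1, which strips glycans from ERAD substrates, fell by 1.16 ± 0.29 at 48 h from 28.3 to 15 CPM (adjusted p = 0.0183), against the 1 complete sham library. Rnf139, a membrane ubiquitin ligase, fell by 0.80 ± 0.18 at 48 h from 40.7 to 23.3 CPM (adjusted p = 0.00412). Of 22 further folding factors 0 rose and 3 fell at 4 h (Mogs, Cnpy3 and Txndc5), and 2 rose and 3 fell at 48 h, with the same shares of all genes as background. Ero1lb, an oxidase that feeds the disulphide isomerases, fell by 1.30 ± 0.28 at 48 h from 163.5 to 66.5 CPM (adjusted p = 0.00402). Txndc5, a disulphide isomerase, fell by 0.55 ± 0.12 at 4 h and rose by 0.76 ± 0.12 at 48 h, with means of 211 CPM in sham, 144.7 at 4 h and 358 at 48 h (adjusted p = 0.00346 and 0.000595). By library totals alone 11 of the 21 ERAD genes and 16 of the 22 folding factors fell at 4 h. So did 2287 of 4906 genes in 18 libraries on that scale.

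Of 30 genes of translocation, signal peptidase and N-glycosylation, 2 rose and 1 fell at 4 h, 6 rose and 3 fell at 48 h, and 0 rose and 9 fell from 48 to 168 h. In 18 libraries 18% of all genes rose and 18.9% fell at 48 h. Of 4906 genes there, 829 rose and 920 fell at 4 h, and 562 rose and 457 fell from 48 to 168 h. Ssr2, a further TRAP subunit, rose by 0.83 ± 0.13 at 48 h (adjusted p = 0.000475) from 85.6 to 152 CPM. Srprb, of the receptor for the signal recognition particle, rose by 0.82 ± 0.20 (adjusted p = 0.00808) from 31.6 to 55.7 CPM. Rpn2, of the oligosaccharyl transferase, rose by 0.59 ± 0.10 (adjusted p = 0.000985) from 248 to 373.9 CPM. Magt1, another protein of that enzyme, fell by 0.92 ± 0.28 (adjusted p = 0.0223) from 116.6 to 61.7 CPM. Sec62 and Sec63, accessory proteins of the channel, fell at 48 h by 0.88 ± 0.26 and 0.60 ± 0.23 (adjusted p = 0.0204 and 0.0499). By library totals alone 12 of the 30 rose and 1 fell at 48 h, and 0 rose and 11 fell at 4 h. Of 4906 genes in 18 libraries, 1432 rose and 605 fell at 48 h on that scale, and 318 rose and 2287 fell at 4 h.

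Of 33 further ATF4 targets and amino acid response genes, 30 were tested, of which 6 rose and 1 fell at 4 h and 9 rose and 2 fell at 48 h. In either direction edgeR called 35.7% of all genes in 18 libraries and 15.5% in 16 at 4 h, and 36.8% and 14.9% at 48 h. At 4 h Ddit4, an inhibitor of mTORC1, rose by 3.26 ± 0.50 (adjusted p = 0.000871) from 5.13 to 50.3 CPM and Psat1, of serine synthesis, by 3.16 ± 0.80 (adjusted p = 0.0167) from 0.5 to 4.69, both against the 1 complete sham library. The 1 gene of the list that fell at 4 h was Shmt2, by 0.76 ± 0.12 in 18 libraries (adjusted p = 0.000318), from 237 to 140 CPM. Gdf15, a secreted stress factor, rose by 1.38 ± 0.24 at 0.5 h (adjusted p = 0.0353) from 22.8 to 59.6 CPM and fell by 2.92 ± 0.31 at 24 h (adjusted p = 0.000109) to 3 CPM. By library totals alone 4 of the 30 rose and 2 fell at 4 h, where 318 of 4906 genes in 18 libraries rose and 2287 fell.

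Markers of other cells also varied among the libraries. Of 8 neutrophil markers the summed level was 12.8 CPM in the complete sham library, 60.5 and 135.9 at 4 h, 7.58 and 55.5 at 24 h and 13.4 and 71.8 at 48 h, with Camp at 0 in 9 of 16 libraries. Of 7 macrophage markers it was 411 CPM in sham, 493 and 600 at 4 h, 399 and 869 at 24 h and 824 and 916 at 168 h, none at 0. Of 4 cholangiocyte markers it was 12.6 CPM in sham, 36.6 and 65 at 4 h and 10.4 to 21.5 at 24 and 48 h, with Sox9 the most abundant and none at 0. Of 5 endothelial markers it was 208 CPM in sham, 290.7 and 298.5 at 4 h and 195 to 217.7 at 24 and 48 h, and of 5 stellate markers 219, 254.7 to 258 and 162.6 to 203. Hepatocyte markers summed to 129790 CPM in sham, 159742 and 166684 at 4 h, and 90016 and 94094 at 24 h. Markers of exocrine pancreas, a tissue rich in these chaperones, summed to at most 0.323 CPM in any library and to 0 in sham and from 2 to 48 h. The part of the other cells in the members' values was not tested.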

How the data were processed

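The data were 18 tables, 1 per library, with a read count, an RPKM value and a coverage percent per gene. The authors deposited all 3 columns, and the counts are whole numbers of unique reads per the file headers. The reads were placed on mm10, per the submitters' processing notes; no source used here gives the aligner, counter or strand. The deposited RPKM values equal the counts scaled by gene length and library total, and the deposited percent is the share of a gene model covered by reads. Rows without a gene name (152, at most 0.0326% of a library) were left out. The 2 tables that stop above a count of 1 leave 1.14% (sham replicate 2) and 4.73% (0.5 h replicate 1) of the reads unlisted, and unlisted genes there were treated as unknown. Library totals were those of the headers.

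Counts were tested with edgeR 4.0.16 (R 4.3.3), with TMM factors, 1 fit over the 9 groups, and quasi-likelihood F tests; SE is the log2 change over the square root of F. Genes were kept with 15 reads in all and, in 2 or more libraries, a CPM worth 10 reads of the median library. Alternatives were DESeq2 1.42.0, RLE factors, library totals alone, limma 3.58.1 on log2(RPKM + 1), no filter, only the groups compared, unlisted genes as 0, a 17-library fit, a replicate block, and each library left out. Tested on simulated data for 4 h against sham, the 18-library fit over 4906 genes found 95% of the genes changed 2-fold and 100% of those changed 4-fold, with 10 false among 205 calls. The 16-library fit over 12199 genes found 41% and 88%, with 10 false among 139. All genes were simulated with the same fixed spread between libraries and without a shift in scale. For members with a wider spread these rates do not apply, so a missing call does not show the absence of a 2-fold change. Chi-square per degree of freedom between the 2 pools of a group exceeded counting noise in each group, so neither pool was a copy of the other. Pools of different groups were not compared in this way. Genes were named by rule: all members, and from each further list at most 3 called genes per direction and comparison, in order of size. The members and lists were chosen with earlier results of these data known. Figures were drawn with Python 3.11.15, pandas 2.3.3 and matplotlib 3.10.9.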

Additional observations from a re-analysis of the deposited data

Results flagged for a closer look

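The effect against sham differed between times in 4 pairs of times compared, by edgeR's quasi-likelihood test of the later against the earlier time, for 5 members between 2 and 4 h. Dnajb9, Atf4 and Sec61b were higher at 4 h and Herpud1 and Sel1l lower. Between 4 and 24 h 9 members differed: P4hb, Calr and Ern1 were higher at 24 h, and Dnajb9, Edem1, Atf4, Chac1, Ppp1r15a and Sec61b lower. Between 24 and 48 h 3 members differed, with Herpud1 and Sec61a1 higher at 48 h and Derl3 lower. Between 48 and 168 h 4 members differed, with Dnajb9 and Derl3 higher at 168 h and Sec61a1 and Ssr1 lower. The sham pools cancel in these differences. With 2 pools a group, no pool was tested as standing apart from its group.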

How the results depend on the processing

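Of the 47 calls of a member in a comparison, 8 held under every alternative: Herpud1 at 4 and 24 h, Syvn1 at 4 h, Derl2 at 48 h, Atf4 at 4 h and from 2 to 4 h, and Sec61a1 at 48 h and from 48 to 168 h. Of 1221 checks 976 kept the call, 243 lost it and 2 reversed the sign, both for Sec61b from 4 to 24 h (0.049 by library totals alone, 0.044 with limma on RPKM). The cause of the changes was not tested, other than that unlisted genes taken as 0 put false zeros into 2 libraries.

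Counts of called members moved by over 1.5 times as follows. At 0.5 h (1) they were 0 with DESeq2, only the groups compared, unlisted genes as 0 or the replicate block. At 2 h (2) they were 1 with RLE factors, 4 with limma on RPKM and 0 with unlisted as 0. At 4 h (8) they were 16 by library totals alone, 17 with limma and 5 with unlisted as 0. At 24 h (5) they were 3 with RLE factors, library totals alone or limma, 8 with no filter and 1 with unlisted as 0. At 48 h (6) they were 16 with only the groups compared. At 72 h (3) they were 5 with DESeq2 or the replicate block, 6 with only the groups compared and 1 with unlisted as 0. At 120 h (0) they were 1 with no filter. At 168 h (1) they were 5 with DESeq2, 3 with no filter, 12 with only the groups compared, 0 with unlisted as 0 and 2 with the replicate block. From 2 to 4 h (5) they were 2 with unlisted as 0 and 8 with the replicate block. From 4 to 24 h (9) they were 15 by library totals alone or limma, 3 with only the groups compared and 2 with unlisted as 0. From 24 to 48 h (3) they were 1 with only the groups compared. From 48 to 168 h (4) they were 7 with only the groups compared and 2 with unlisted as 0. Over the 9 groups (17) they were 9 with unlisted as 0.

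Leaving out each library in turn gave 0 to 1 members at 0.5 h, 0 to 2 at 2 h, 3 to 9 at 4 h, 1 to 6 at 24 h, 3 to 8 at 48 h, 0 to 5 at 72 h, 0 at 120 h, 0 to 4 at 168 h, 2 to 6 from 2 to 4 h, 3 to 9 from 4 to 24 h, 0 to 4 from 24 to 48 h, 1 to 5 from 48 to 168 h and 12 to 21 over the 9 groups. The lowest values came without 4 h replicate 1 at 4 h (3), from 4 to 24 h (3) and over the groups (12), without sham replicate 1 at 72 h (0), without sham replicate 1 or either 24 h pool at 24 h (1), without sham replicate 1 or 48 h replicate 1 at 48 h (3), without any sham or 168 h pool at 168 h (0), and without 48 h replicate 2 from 48 to 168 h (1). Over 36 pairs of groups the correlation of same-numbered deviations ran from -0.546 to 0.530, with a median of 0.043, and 14 were over 0.1. These values cannot show whether same-numbered pools of some groups were handled together. Where 1 library stood for a group, its spread was taken from the other groups.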

Other observations

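Of 32 genes of transport between the ER and the Golgi, 11 rose and 1 fell at 48 h, 8 rose and 0 fell from 24 to 48 h, and 1 rose and 7 fell from 48 to 168 h. In 18 libraries 18% of all genes rose and 18.9% fell at 48 h. Of 4906 genes there, 386 rose and 323 fell from 24 to 48 h, and 562 rose and 457 fell from 48 to 168 h. Sec13, a coat protein of the vesicles that leave the ER, rose by 0.67 ± 0.13 at 48 h (edgeR, adjusted p = 0.00226) from 38.4 to 61.2 CPM. Copg1, of the coat of returning vesicles, rose by 0.61 ± 0.12 (adjusted p = 0.0026) from 105.7 to 161 CPM. Kdelr2, the receptor that brings escaped chaperones back, rose by 0.54 ± 0.13 at 48 h and by 0.63 ± 0.14 at 4 h (adjusted p = 0.0075 and 0.0026). Sar1b, a small GTPase needed for the export of lipoproteins, fell by 0.64 ± 0.16 at 48 h (adjusted p = 0.00876). At 4 h 6 of the 32 rose and 4 fell, where 829 of 4906 genes in 18 libraries rose and 920 fell. By library totals alone 0 of the 32 rose and 15 fell at 4 h, where 318 of these genes rose and 2287 fell.

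Of 14 other regulators of the unfolded protein response, 1 rose and 3 fell at 4 h, 0 rose and 1 fell at 24 h, and 2 rose and 0 fell at 48 h. In 18 libraries edgeR called 35.7% of all genes at 4 h, 17.3% at 24 h and 36.8% at 48 h. Creb3 rose by 0.53 ± 0.17 at 4 h (adjusted p = 0.0247) from 26.1 to 37.8 CPM. Wfs1, an ER membrane protein, fell by 0.80 ± 0.29 at 4 h (adjusted p = 0.0487) from 18 to 10.3 CPM. Atf6b, the relative of Atf6, fell by 0.51 ± 0.12 at 4 h (adjusted p = 0.00478) from 29.8 to 20.9 CPM. Tmbim6, a membrane protein that restrains IRE1α, fell by 0.67 ± 0.15 at 24 h (adjusted p = 0.00774) from 1236 to 776 CPM. Creb3l2, a transcription factor of secretory capacity, rose by 0.97 ± 0.25 at 48 h (adjusted p = 0.0103) from 16.3 to 32 CPM. By library totals alone 0 of the 14 rose and 6 fell at 4 h, where 318 of 4906 genes in 18 libraries rose and 2287 fell.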
